A study of Mus musculus with 8 samples.

Results

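Dbp, Tef, Hlf, Per1, Per2, Per3, Cry1, Cry2, Arntl and Clock, the genes of the core circadian clock and the PAR-bZIP transcription factors it drives, were examined in the neonatal mouse testis. The 10 genes were taken by symbol from the 23765 genes of the deposited expression table, and all 10 were measured. RNA sequencing of total RNA had been done on 4 testis samples labelled Dio3KO and 4 wild-type testis samples. All came from mice aged 5 postnatal days and of the 129/SVJ background. The enzyme encoded by Dio3 is a deiodinase that breaks down thyroid hormones. The study's title names genes under thyroid hormone control in the testis of the newborn as its subject. Neither the altered stretch of Dio3 nor the hour of the day at which testes were taken is given in the labels.

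The clock is a transcriptional feedback loop. CLOCK and BMAL1, the product of Arntl, bind together at E-box sequences and activate the Per and Cry genes, whose proteins return to the nucleus and repress that pair. CLOCK and BMAL1 also drive Dbp and other output genes. DBP, TEF and HLF share a proline and acidic amino acid rich domain beside a basic leucine zipper and activate genes that carry a D-box, Per genes among them. Because many of these transcripts cycle over the day in most tissues, the hour of collection bears on their levels. In the adult mouse testis, clock transcripts have been described with little daily rhythm.

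Levels are the authors' means in RPKM, or reads corrected for the length of a transcript and the size of a library, each with its coefficient of variation (CV, the SD over the mean). Values of single samples and the number of reads per sample were not in the data used here. No overlap of single samples and no counting interval can therefore be given. A log2 ratio sets the Dio3KO-labelled mean over the wild-type mean with 0.5 RPKM added to each, and its standard error (SE) and 95% interval were computed from the deposited CVs with 4 samples per group. A gene is said to have risen or fallen where the adjusted p in the authors' deposited table was below 0.05. Fewer cells of a type and less RNA per cell cannot be told apart in whole testes.

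Of the 10 genes, 2 rose in the Dio3KO-labelled testes (Dbp and Clock), 2 fell (Tef and Arntl) and 6 did not pass the threshold (Hlf, Per1, Per2, Per3, Cry1 and Cry2). The 4 genes that moved were thus both members of the activator pair, in opposite directions, and 2 of the 3 PAR-bZIP factors, also in opposite directions. None of the 5 repressor genes of the Per and Cry families passed. In both groups every one of the 10 genes reached 1 RPKM. Among the 15225 genes with such a mean in either group, 4548 (29.9%) passed, 2127 of them higher (14.0%) and 2421 lower (15.9%) in the Dio3KO-labelled group. The 4 called of 10, or 40%, stand near that background, and the share is not read as a result about the set. The median log2 ratio was 0.08 over the 10 genes and -0.05 over all genes tested.

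**Figure D1:**
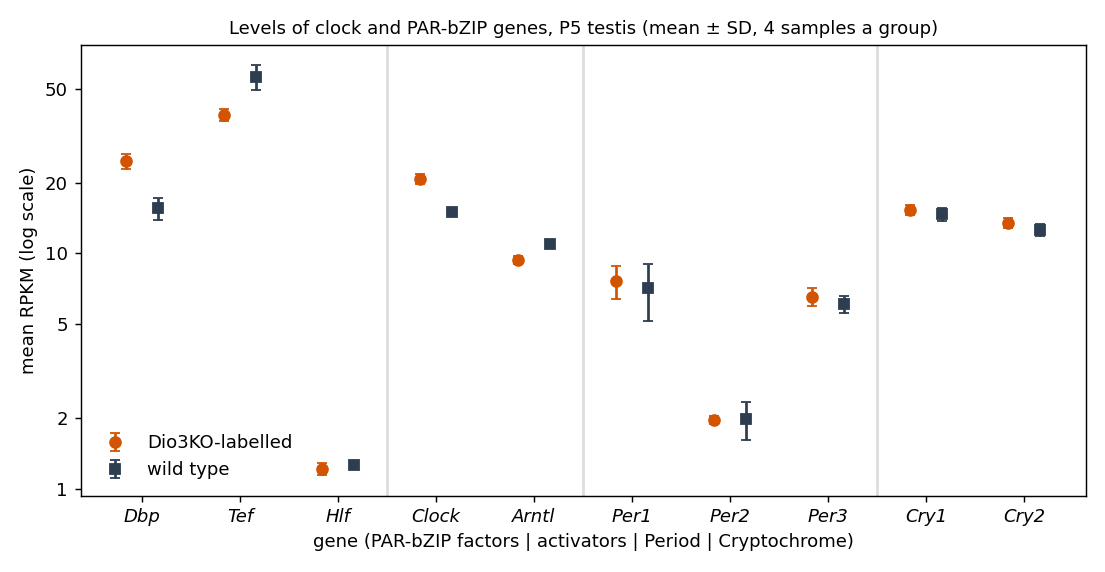
Mean level of each of the 10 genes in RPKM (log scale, vertical axis) in Dio3KO-labelled testes (left point of each pair) and wild-type testes (right point), with bars of 1 SD from the deposited CVs of 4 samples per group. Tef lies at 38.7 RPKM in Dio3KO-labelled testes and 56.3 RPKM in wild-type testes and Dbp at 24.6 RPKM in Dio3KO-labelled testes and 15.5 RPKM in wild-type testes, while Per2 and Hlf lie between 1 and 2 RPKM in both groups.

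A second call, from a moderated test built with limma on the deposited means and CVs, passed the same 4 genes and no other, in the same directions, against 41.8% of all genes. An unequal-variance test recomputed from the same values passed the same 4 as well. These tests rest on the same means and CVs as the deposited p, and are no separate evidence. The share of all called genes that were higher depended on scaling: limma gave 2837 higher and 3533 lower as deposited, 3524 higher and 2563 lower with the median log2 ratio set to 0, and 4283 higher and 1949 lower with the groups scaled to equal sums. Dbp, Clock and Tef kept direction and call under each of these. Arntl kept its direction, and its limma call was lost at equal sums (adjusted p = 0.0906).

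Dbp, the D-box binding factor that is one of the most direct outputs of the clock, rose. It lies on the plus strand of chromosome 7 (GRCm38, chr7:45705088-45710203) and is listed with a single transcript. Its mean was 24.6 RPKM in Dio3KO-labelled testes (CV 0.07) and 15.5 RPKM in wild-type testes (CV 0.11). That is a 1.58-fold higher level, with a log2 ratio of 0.65 ± 0.09 (SE), and the authors' deposited table gives 0.0067 as its adjusted p. The limma test gave an adjusted p of 7.99e-05. In absolute size this log2 ratio exceeded that of 92.4% of the genes tested. The 3' end of Dbp overlaps exons of Sphk2, a sphingosine kinase gene on the opposite strand, over 539 of its 2993 exon bases. Sphk2 also rose, with 20.1 RPKM in Dio3KO-labelled testes and 15.2 RPKM in wild-type testes (adjusted p = 0.0206 in the authors' deposited table). Whether reads were counted by strand is not stated, so reads from the shared stretch cannot be told apart. The same holds for exon bases that Tef (193), Cry2 (295) and Arntl (33) share with antisense genes that were not measured under their own names.

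Tef, the thyrotroph embryonic factor, was first described in the rat pituitary as an activator of the thyrotropin beta gene. It fell in the Dio3KO-labelled testes while remaining the most abundant of the 10 genes in both groups. Its gene is on the plus strand at chr15:81802421-81826863. The mean was 38.7 RPKM in Dio3KO-labelled testes (CV 0.06) and 56.3 RPKM in wild-type testes (CV 0.12), 0.688 times the wild-type level. The log2 ratio was -0.53 ± 0.10, and its adjusted p was 0.0385 by the authors' deposited table and 0.000353 by limma. It exceeded in absolute size the log2 ratio of 89.0% of the genes tested.

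Of the 5 Tef transcripts, 4 fell. The best expressed of them is the one given above, and uc007wxi had 11.1 RPKM in Dio3KO-labelled testes against 18.2 RPKM in wild-type testes, with a log2 ratio of -0.68 (adjusted p = 0.0129 in the authors' deposited table). The weakest, uc007wxh, had 0.85 RPKM in Dio3KO-labelled testes and 1.94 RPKM in wild-type testes, and did not pass (adjusted p = 0.0888 in the authors' deposited table). Transcripts of 1 gene share exons and reads, so they are not separate measurements.

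Hlf, named hepatic leukemia factor after its fusion in a leukaemia, was the least abundant of the 10 genes. It lies on the minus strand at chr11:90336536-90390895. Its best expressed transcript averaged 1.22 RPKM in Dio3KO-labelled testes (CV 0.06) and 1.27 RPKM in wild-type testes (CV 0.03). The log2 ratio was -0.04, with a 95% interval of -0.13 to 0.05 (adjusted p = 0.379 in the authors' deposited table). The other 3 Hlf transcripts had the higher mean in the Dio3KO-labelled group, so the direction of this gene depends on the transcript taken. For uc007kwq the means were 1.18 RPKM in Dio3KO-labelled testes and 1.05 RPKM in wild-type testes (log2 ratio 0.12, adjusted p = 0.0433 in the authors' deposited table).

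With Dbp higher and Tef lower, their means lay closer together in the Dio3KO-labelled group. Per length, Tef stood at 1.57 times Dbp in Dio3KO-labelled testes and at 3.62 times Dbp in wild-type testes. The ratio of Dbp to Hlf was 20.2 in Dio3KO-labelled testes and 12.2 in wild-type testes, and that of Tef to Hlf was 31.7 in Dio3KO-labelled testes and 44.3 in wild-type testes. These are ratios of the authors' means without an error, since the table does not say how the genes vary together from sample to sample.

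The start regions of both moving PAR-bZIP genes are shown because Dbp is the textbook E-box target of CLOCK and BMAL1. They are RefSeq sequence of GRCm38.p6, a C57BL/6J assembly, whereas the mice were 129/SVJ. In a window of 250 bases upstream of a RefSeq transcript start, 6 motifs were searched on both strands, and capitals mark each match. They were the E-box CACGTG, the E-prime box CACGTT, the D-box as TTACGTAA or as TTATGTAA, the nuclear receptor half-site AGGTCA, the half-site TGACGT of the cyclic AMP response element, and the CCAAT box. The CCAAT box was added after the windows had been read. An E-box stood in 6.02% of the 32851 windows of 27025 genes, an E-prime box in 3.85%, a D-box in 0.931%, the nuclear receptor half-site in 14.0%, the TGACGT half-site in 6.47% and a CCAAT box in 33.8%. A match is a description of letters and not a site in use, and a window without one says nothing of the factor. The 91 bases of Dbp's window that lie outside its annotated exons (chr7:45704997-45705087, plus strand) held 1 CCAAT box, which lies on the other strand and reads ATTGG on the strand shown. The Tef window, upstream of an internal start (chr15:81811164-81811413, plus strand), held 1 E-box whose first base was 138 bases before the start, and 2 CCAAT boxes. The window of Tef's outer RefSeq start also held an E-box, 127 bases before that start. All 250 bases of that window lie within annotated exons of Tef itself, and it overlaps an exon of Gm17597.
Dbp: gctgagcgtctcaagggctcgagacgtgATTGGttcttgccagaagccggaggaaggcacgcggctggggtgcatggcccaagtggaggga
Tef: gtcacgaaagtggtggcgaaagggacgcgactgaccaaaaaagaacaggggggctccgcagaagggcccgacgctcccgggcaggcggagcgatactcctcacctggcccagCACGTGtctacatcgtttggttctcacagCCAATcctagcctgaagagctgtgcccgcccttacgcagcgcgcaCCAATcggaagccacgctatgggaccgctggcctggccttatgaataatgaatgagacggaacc

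Clock, which encodes the basic helix-loop-helix PAS partner of BMAL1, rose. It lies on the minus strand at chr5:76209868-76304792. Its mean was 20.7 RPKM in Dio3KO-labelled testes (CV 0.05) and 15.0 RPKM in wild-type testes (CV 0.02), a 1.38-fold higher level. The log2 ratio was 0.45 ± 0.04, and its adjusted p was 0.0084 by the authors' deposited table and 4.07e-05 by limma. In absolute size it exceeded the log2 ratio of 85.3% of the genes tested. All 5 Clock transcripts rose, with log2 ratios between 0.32 and 0.45.

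Arntl, whose product BMAL1 is the partner that the mouse clock cannot run without, fell by less. It lies on the plus strand at chr7:113207465-113314126. Its mean was 9.39 RPKM in Dio3KO-labelled testes (CV 0.04) and 10.97 RPKM in wild-type testes (CV 0.03), 0.856 times the wild-type level. The log2 ratio was -0.21 ± 0.03, and its adjusted p was 0.0093 by the authors' deposited table and 0.00684 by limma. Its size exceeded that of 59.8% of the genes tested, so the call rests on low CVs and not on a large difference. Of 6 Arntl transcripts 5 fell, and uc009jhh, with 8.10 RPKM in Dio3KO-labelled testes and 9.59 RPKM in wild-type testes, did not pass (adjusted p = 0.0988 in the authors' deposited table). A further transcript stood under the older symbol bmal1b and was kept out of the counts. It had 7.42 RPKM in Dio3KO-labelled testes against 9.02 RPKM in wild-type testes (adjusted p = 0.0372 in the authors' deposited table).

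Because the partners moved in opposite directions, the means of the activator pair lay further apart in the Dio3KO-labelled group. Per length, Clock stood at 2.21 times Arntl in Dio3KO-labelled testes and at 1.37 times Arntl in wild-type testes, again as ratios of means without an error. Protein levels were not measured.

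**Figure D2:**
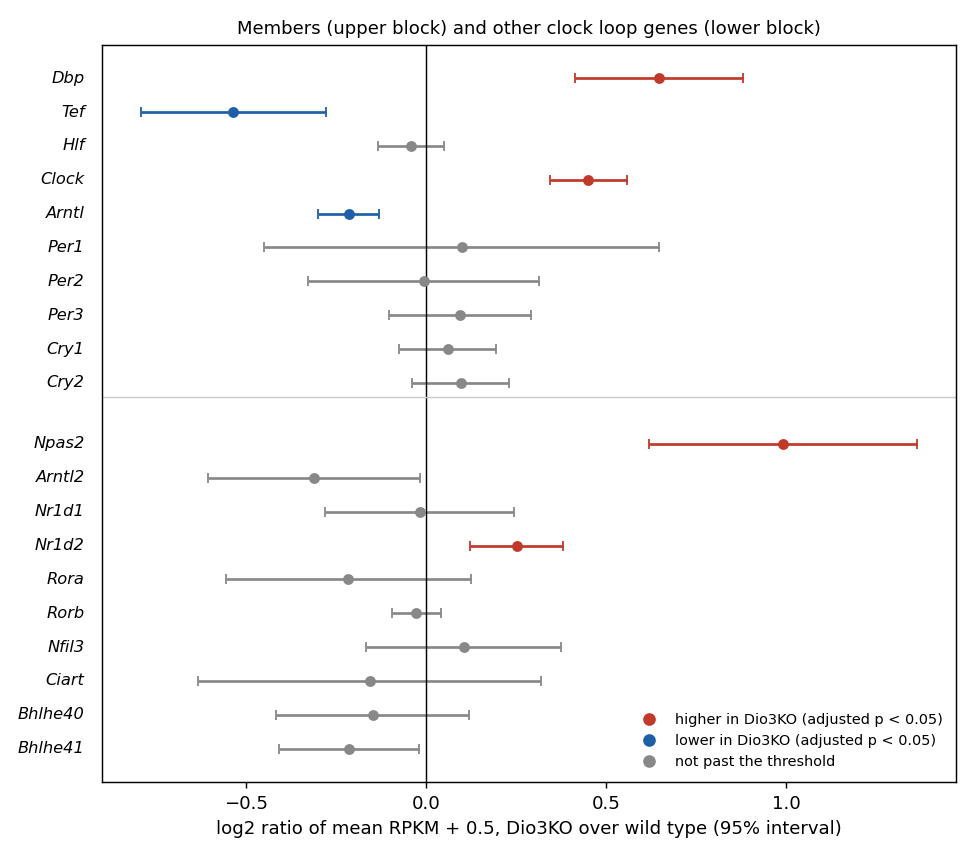
Log2 ratio of mean RPKM + 0.5, Dio3KO-labelled over wild type (horizontal axis), with 95% intervals from the deposited CVs, for the 10 genes and the reported genes of the clock's transcription loops. The intervals of Dbp (0.65) and Clock (0.45) lie above 0 and those of Tef (-0.53) and Arntl (-0.21) below it. The interval of Per1 reaches from -0.45 to 0.65.

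The start regions of both activator genes are given because their letters are unlike. Capitals mark the 6 motifs named above. The first Clock window (chr5:76304793-76305042, minus strand, overlapping an exon of Gm7467) held none of them, and the window of another Clock start held a nuclear receptor half-site 119 bases before that start. The Arntl window (chr7:113207215-113207464, plus strand) held 7 CCAAT boxes, all read as ATTGG, the first 247 bases and the last 14 bases before the start. Of the 32851 windows, 3 (0.00913%) held 7 or more CCAAT boxes, and both overlapping windows of Arntl are among those 3. This count was made after the Arntl window had been read.
Clock: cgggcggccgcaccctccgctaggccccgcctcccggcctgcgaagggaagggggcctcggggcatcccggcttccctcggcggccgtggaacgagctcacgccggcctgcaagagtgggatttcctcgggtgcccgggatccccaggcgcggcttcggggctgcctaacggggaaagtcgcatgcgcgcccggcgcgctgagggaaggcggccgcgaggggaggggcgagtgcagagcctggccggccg
Arntl: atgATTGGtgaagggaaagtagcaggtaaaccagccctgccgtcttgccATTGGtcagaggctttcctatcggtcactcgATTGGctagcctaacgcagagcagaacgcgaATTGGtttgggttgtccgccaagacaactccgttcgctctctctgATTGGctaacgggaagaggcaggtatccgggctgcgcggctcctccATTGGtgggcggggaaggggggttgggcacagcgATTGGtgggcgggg

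The Per genes encode the period proteins, which enter the nucleus with cryptochromes and repress CLOCK and BMAL1. None of the 3 passed the threshold. Per1, at chr11:69095217-69109960 on the plus strand, averaged 7.66 RPKM in Dio3KO-labelled testes (CV 0.16) and 7.11 RPKM in wild-type testes (CV 0.27). Its log2 ratio was 0.10 with a 95% interval of -0.45 to 0.65 (adjusted p = 0.609 in the authors' deposited table), so changes as large as those of Dbp and Clock lie inside or at the edge of it. Per1 was the most variable of the 10 genes from sample to sample. Its CV was above that of 90.8% of the genes tested in Dio3KO-labelled testes, where the median CV was 0.06, and of 95.1% in wild-type testes, where the median CV was 0.08. All 4 Per1 transcripts had CVs of 0.16 in Dio3KO-labelled testes and of 0.27 or 0.28 in wild-type testes. Per1 is known as an immediate responder to light, cyclic AMP and glucocorticoids, and the part of such inputs in this spread was not tested.

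Per2, at chr1:91415982-91459324 on the minus strand, had means of 1.97 RPKM in Dio3KO-labelled testes (CV 0.04) and 1.98 RPKM in wild-type testes (CV 0.18). The log2 ratio was -0.01, with a 95% interval of -0.33 to 0.32 (adjusted p = 0.774 in the authors' deposited table), and none of its 3 transcripts passed. Per3, at chr4:151003652-151044665 on the minus strand, had 6.55 RPKM in Dio3KO-labelled testes (CV 0.09) and 6.10 RPKM in wild-type testes (CV 0.08). The log2 ratio of this best expressed transcript was 0.10, with a 95% interval of -0.10 to 0.29 (adjusted p = 0.353 in the authors' deposited table). The Per3 transcripts were split. All 7 had the higher mean in the Dio3KO-labelled group, and 4 of them rose, with log2 ratios between 0.20 and 0.24 and adjusted p between 0.035 and 0.0443 in the authors' deposited table. The transcript with the lowest p, uc012dpx, had 6.04 RPKM in Dio3KO-labelled testes and 5.17 RPKM in wild-type testes.

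The Cry genes encode the cryptochromes, the stronger repressors of the pair. Cry1, at chr10:85131700-85185064 on the minus strand, had 15.3 RPKM in Dio3KO-labelled testes (CV 0.05) and 14.7 RPKM in wild-type testes (CV 0.06). Its log2 ratio was 0.06, with a 95% interval of -0.07 to 0.20 (adjusted p = 0.355 in the authors' deposited table). Cry2, at chr2:92403646-92434043 on the minus strand, had 13.5 RPKM in Dio3KO-labelled testes (CV 0.05) and 12.6 RPKM in wild-type testes (CV 0.06). Its log2 ratio was 0.10, with a 95% interval of -0.04 to 0.23 (adjusted p = 0.208 in the authors' deposited table). The upper bound of either interval lies below the log2 ratio of Clock. With the groups scaled to equal sums, limma passed both as higher, Cry1 at 0.16 (adjusted p = 0.0487) and Cry2 at 0.19 (adjusted p = 0.0212). The second Cry2 transcript had 11.6 RPKM in Dio3KO-labelled testes and 11.2 RPKM in wild-type testes and did not pass.

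Repressor start regions are shown for the matches they hold to the sites of the activators and of the PAR-bZIP factors. The Per3 window (chr4:151044666-151044915, minus strand) held 2 D-boxes, both TTATGTAA, which began 205 and 158 bases before the start, and 3 CCAAT boxes. It was the only one of the 14 windows of these genes with a D-box, for the 9 genes that had a window. The Cry1 window (chr10:85185065-85185304, minus strand) held an E-prime box 79 bases and an E-box 60 bases before the start, and 1 CCAAT box. Of the other repressor windows, Cry2 had an E-prime box at 166 bases. Of the 2 windows of Per1, the first had a TGACGT half-site 132 bases before its own start. The other had an E-box 166 bases and a nuclear receptor half-site 137 bases before its own start. No window of Per2 was at hand. Hlf had the full palindrome of 2 overlapping TGACGT half-sites 9 bases before its start. E-boxes or E-prime boxes were thus found beside a gene that fell (Tef) and beside genes that did not pass (Per1, Cry1 and Cry2).
Per3: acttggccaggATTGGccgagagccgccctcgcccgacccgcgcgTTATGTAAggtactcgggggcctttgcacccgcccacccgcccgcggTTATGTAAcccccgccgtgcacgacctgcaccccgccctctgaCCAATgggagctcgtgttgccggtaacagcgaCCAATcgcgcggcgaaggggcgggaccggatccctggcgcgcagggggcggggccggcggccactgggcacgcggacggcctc
Cry1: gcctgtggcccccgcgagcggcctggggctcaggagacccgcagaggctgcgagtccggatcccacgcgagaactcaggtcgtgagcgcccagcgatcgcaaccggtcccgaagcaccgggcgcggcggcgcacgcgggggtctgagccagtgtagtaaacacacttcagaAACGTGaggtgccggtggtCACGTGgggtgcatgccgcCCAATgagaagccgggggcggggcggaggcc

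**Figure D3:**
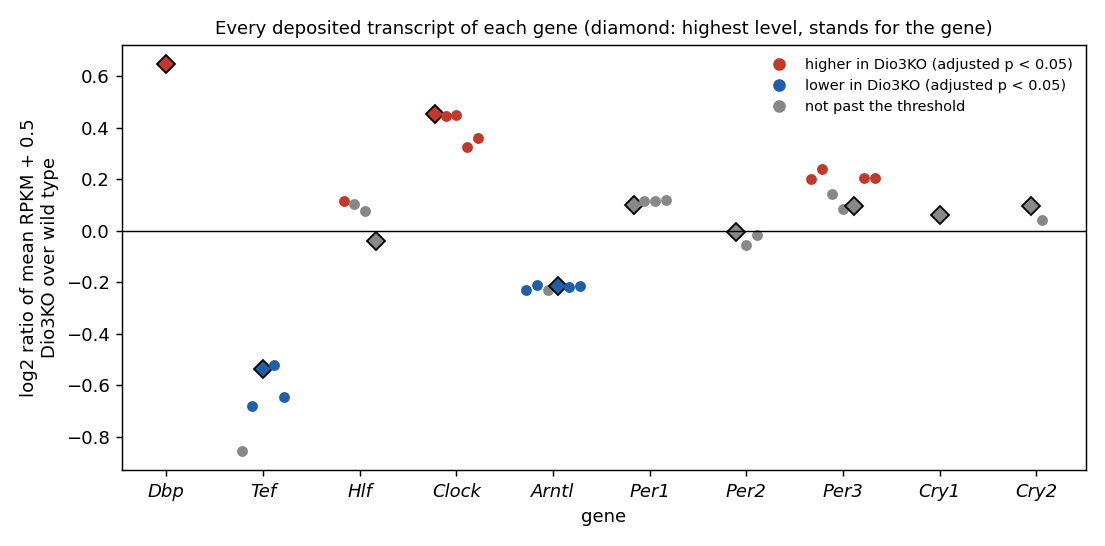
Log2 ratio of mean RPKM + 0.5, Dio3KO-labelled over wild type (vertical axis), of each of the 38 deposited transcripts, grouped by gene and coloured by call. The transcripts of Clock lie between 0.32 and 0.45, all past the threshold, and those of Per3 are divided between called and not called.

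Counted by transcript, the 10 genes had 38 deposited transcripts, and 8 genes had more than 1. Of the 38, 11 rose, 9 fell and 18 did not pass. Over all transcripts of at least 1 RPKM in either group, 10351 of 35029 (29.5%) passed. As transcripts of 1 gene share exons and reads, the count of the 38 is not read as a result about the set. The 11 that rose were the 5 of Clock, 4 of Per3, 1 of Hlf and the 1 of Dbp. The 9 that fell were 5 of Arntl and 4 of Tef. In no gene did some transcripts rise and others fall.

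The order of the 10 genes by level was the same in both groups, and ran Tef, Dbp, Clock, Cry1, Cry2, Arntl, Per1, Per3, Per2 and Hlf from high to low. RPKM is a level per length, so genes can be compared in it. In Dio3KO-labelled testes the ranges of mean ± SD of neighbours in that order overlapped only for Per1 and Per3. In wild-type testes they overlapped for Dbp and Clock, for Clock and Cry1, and for Per1 and Per3. Dbp, Clock and Cry1 thus stood apart in Dio3KO-labelled testes at 24.6, 20.7 and 15.3 RPKM, and close together in wild-type testes at 15.5, 15.0 and 14.7 RPKM.

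**Figure D4:**
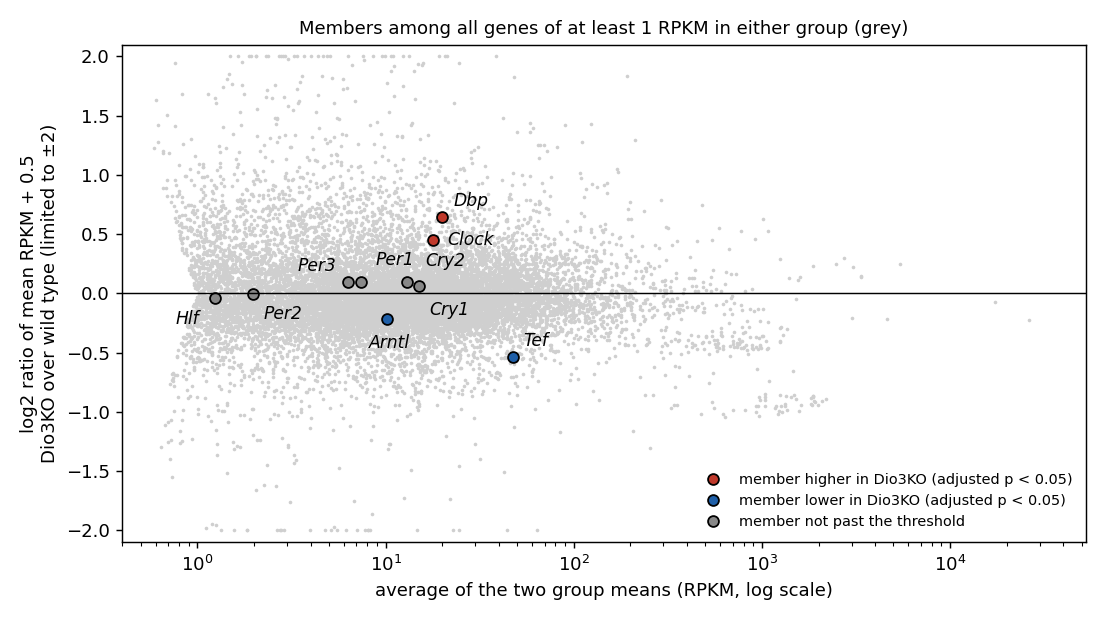
Log2 ratio of mean RPKM + 0.5, Dio3KO-labelled over wild type (vertical axis, limited to 2 in either direction), against the average of the group means in RPKM (log scale), for all 15225 genes tested (grey) and the 10 genes (coloured by call). Dbp (0.65), Clock (0.45) and Tef (-0.53) lie farther from 0 than the other 7 genes. Many grey points lie farther out still, since in absolute size Dbp exceeded 92.4%, Clock 85.3% and Tef 89.0% of the genes tested.

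The other genes of the clock's transcription loops that are reported here numbered 10, of which 2 rose, 0 fell and 8 did not pass (1 of these, Rorb, lay under 1 RPKM in both groups). Over all genes tested 14.0% rose and 15.9% fell, so the count is near the background. By limma too 2 rose and 0 fell, and 3 had an unadjusted p below 0.05 in the unequal-variance test. Their median log2 ratio was -0.09. Npas2, a paralogue of Clock that can take its place beside BMAL1, had 1.31 RPKM in Dio3KO-labelled testes and 0.41 RPKM in wild-type testes (log2 ratio 0.99, adjusted p = 0.0143 in the authors' deposited table). It reached 1 RPKM only in the Dio3KO-labelled group, so it is among the genes tested only through the group where it is high. With a minimum of 5 RPKM 1 gene of the list is left as higher, Nr1d2. Nr1d2, which encodes REV-ERB beta, a repressor of Arntl, rose to 27.6 RPKM in Dio3KO-labelled testes, against 23.1 RPKM in wild-type testes (log2 ratio 0.25, adjusted p = 0.0293 in the authors' deposited table).

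Among the 8 loop genes that did not pass, Bhlhe40, a repressor at E-boxes, had 7.58 RPKM in Dio3KO-labelled testes and 8.45 RPKM in wild-type testes. Nfil3, the repressor that competes with the PAR-bZIP factors at D-boxes, had 8.09 RPKM in Dio3KO-labelled testes and 7.48 RPKM in wild-type testes, with a 95% interval of its log2 ratio from -0.16 to 0.38. Nr1d1, which encodes REV-ERB alpha and was named after its values were seen, had 7.07 RPKM in Dio3KO-labelled testes and 7.16 RPKM in wild-type testes (log2 ratio -0.02, 95% interval -0.28 to 0.25). The Nr1d genes and Dbp are all direct targets of CLOCK and BMAL1, and here Dbp and Nr1d2 rose while Nr1d1 did not pass. A difference between Nr1d1 and Nr1d2 was not tested.

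The kinases, phosphatases and ubiquitin ligases that set the lifetime of PER and CRY proteins were measured as 16 genes. By the deposited p 0 rose and 0 fell, where 14.0% of all genes tested rose and 15.9% fell. This depended on the transcript taken: with the transcript of lowest p standing for each gene, 1 rose and 1 fell. Of the 16, 1 (Fbxl21) lay under 1 RPKM in both groups. No test was made of the list. The median log2 ratio was 0.02. In the unequal-variance test 4 of the 16 had an unadjusted p below 0.05. Limma passed 1, against 41.8% of all genes tested. That gene was Btrc, an F-box protein that targets PER for degradation, with 8.28 RPKM in Dio3KO-labelled testes and 6.75 RPKM in wild-type testes (limma adjusted p = 0.0136). The most abundant genes of the list were subunits of casein kinase II. Csnk2b had 76.3 RPKM in Dio3KO-labelled testes and 76.5 RPKM in wild-type testes, and Csnk2a1 had 63.6 RPKM in Dio3KO-labelled testes and 62.6 RPKM in wild-type testes.

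Of 12 cofactors of the clock complexes, 2 rose, 2 fell and 8 stayed short of the threshold, a share near the 29.9% called over all genes. Their median log2 ratio was -0.06. Cipc, listed under an older symbol, encodes a protein that binds CLOCK and inhibits the activator pair. It had 11.8 RPKM in Dio3KO-labelled testes and 8.99 RPKM in wild-type testes (log2 ratio 0.37, adjusted p = 0.003 in the authors' deposited table). Kat2b, an acetyltransferase, rose to 31.2 RPKM in Dio3KO-labelled testes, against 19.1 RPKM in wild-type testes (log2 ratio 0.70, adjusted p = 0.0057 in the authors' deposited table). Timeless, which in mammals is known mostly for protecting replication forks, fell to 9.85 RPKM in Dio3KO-labelled testes, against 15.8 RPKM in wild-type testes (log2 ratio -0.65, adjusted p = 0.0054 in the authors' deposited table). Nono, an RNA-binding protein found with PER complexes, fell to 127 RPKM in Dio3KO-labelled testes, against 152 RPKM in wild-type testes (log2 ratio -0.26, adjusted p = 0.0114 in the authors' deposited table). The most abundant cofactors that did not pass were Sfpq, the partner of NONO, with 90.2 RPKM in Dio3KO-labelled testes and 97.5 RPKM in wild-type testes, and Hdac3, a deacetylase, with 53.0 RPKM in Dio3KO-labelled testes and 50.8 RPKM in wild-type testes.

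Markers of several cell types moved with the groups. Summed over 10 macrophage markers the level was 168 RPKM in Dio3KO-labelled testes and 84.3 RPKM in wild-type testes. Of the 10, 7 were higher and 0 lower, where 14.0% of all genes tested were higher and 15.9% lower. One of the 7, Cd14, reached 1 RPKM only in the Dio3KO-labelled group (1.53 RPKM, against 0.62 RPKM in wild-type testes). Over 8 endothelial markers the sums were 79.4 RPKM in Dio3KO-labelled testes and 64.0 RPKM in wild-type testes, with 4 higher and 0 lower. The 9 Sertoli markers summed to 1941 RPKM in Dio3KO-labelled testes and 1507 RPKM in wild-type testes, with 3 higher and 5 lower. That sum was carried by Clu (1232 RPKM in Dio3KO-labelled testes, 797 RPKM in wild-type testes) and Cldn11 (299.9 RPKM in Dio3KO-labelled testes, 83.6 RPKM in wild-type testes), while the median log2 ratio of the 9 markers was -0.30. The 8 Leydig markers summed to 643 RPKM in Dio3KO-labelled testes and 476 RPKM in wild-type testes, with 2 higher and 1 lower (3 higher and 2 lower by limma). Most of that difference came from Cyp11a1 (156 RPKM in Dio3KO-labelled testes, 64.2 RPKM in wild-type testes) and Hsd3b1 (245 RPKM in Dio3KO-labelled testes, 158 RPKM in wild-type testes). The median log2 ratio of the 8 was 0.07, and 4 of them had a positive one. The 5 peritubular markers summed to 527 RPKM in Dio3KO-labelled testes and 574 RPKM in wild-type testes, with 2 higher and 1 lower. Acta2 made up most of that sum (346 RPKM in Dio3KO-labelled testes, 401 RPKM in wild-type testes), while the median log2 ratio of the 5 was 0.08. For the 9 germ cell markers the sums were 237 RPKM in Dio3KO-labelled testes and 266 RPKM in wild-type testes, with 0 higher and 0 lower by the deposited p (1 higher and 3 lower by limma, and 2 with an unadjusted p below 0.05 in the unequal-variance test). The labels' extraction text names hypothalami, and 13 hypothalamic markers summed to 5.18 RPKM in Dio3KO-labelled testes and 7.78 RPKM in wild-type testes. The highest of them was 1.05 RPKM in Dio3KO-labelled testes and 1.89 RPKM in wild-type testes. Of the 13, 10 were under 1 RPKM in both groups, and of those that reached it Pmch and Syt1 were lower. No marker of any list was at 0 in both groups. The part of these shifts in the levels of the clock genes was not tested. Dio3 itself had 2.95 RPKM in Dio3KO-labelled testes (CV 0.29) and 0.52 RPKM in wild-type testes (CV 0.20, adjusted p = 0.0408 in the authors' deposited table), so its level does not check the genotype label.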

How the data were processed

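RNA sequencing of total RNA from 8 testis samples of mice (4 labelled Dio3KO, 4 wild type) was deposited as 1 table. The submitters' processing notes name FastQC, Novoalign 2.08 and mm10, with no role. Not given in the sources used here are the counting tool, annotation, strandedness and the test that produced the p values.

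Per transcript, the authors deposited each group's mean RPKM, per the file headers. The table also holds each group's CV, a ratio of SD to mean, and the authors' own adjusted p-value between the groups. Columns were tied to groups by name. Each transcript stood 3 times in 147417 lines, leaving 49139 transcripts and, after older symbols were merged, 23765 genes. The transcript with the highest mean stood for its gene. Tested were the 15225 genes reaching 1 RPKM in a group, with calls at a deposited adjusted p below 0.05. Across 10672 genes with both means above 5 RPKM, the deposited p and an unequal-variance p recomputed from means and CVs had a Spearman's rho of 0.999, a description across genes.

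Log2 ratios carry 0.5 RPKM added, which understates changes of low genes. SEs come from the CVs by the delta method. The moderated test used limma 3.58.1 in R 4.3.3, with 6 residual degrees of freedom and Benjamini-Hochberg adjustment over all genes. Its code was run on simulated data with few changed genes and the same CV per gene in both groups. Those settings differ from the data, so that run does not vouch for the calls made here. Where nothing says that the samples came from separate litters, p-values measure the spread between these samples. Coordinates are from GENCODE for GRCm38, by symbol. Promoter windows are from RefSeq, GRCm38.p6.

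The members and lists were chosen with earlier results of these data known. The text names all 10 members and, from each other clock list, every called gene and the 2 most abundant genes not called. A gene that belongs in a clock list is not reported here. Alternatives were other pseudocounts, filters, scalings, transcripts and tests.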

Additional observations from a re-analysis of the deposited data

How the results depend on the processing

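No paired analysis was possible because the table holds only group means, and leaving out each replicate could not be run for the same reason. Of the 10 genes' log2 ratios under the alternatives, 106 values kept their side of the threshold or, under settings that give no p, moved by less than the SD. A further 7 moved by more under settings that give no p, 3 gained a call (Per3, Cry1 and Cry2) and 1 lost it (Arntl). Values short of the threshold could change sign among the 106. Hlf reversed to 0.12 when the transcript with the lowest p stood for the gene, and its sign also turned with all transcripts summed (0.08) or the groups scaled to equal sums (0.03). The sign of Per2 turned as well, to 0.04 with the median log2 ratio set to 0 and to 0.07 at equal sums, without a call. With the lowest-p transcript, 4 of the 10 genes were higher (Dbp, Clock, Per3 and Hlf). Under limma with the groups scaled to equal sums, a setting chosen after seeing the data, 4 were higher (Dbp, Clock, Cry1 and Cry2) and 1 was lower (Tef), and 4283 of all genes were higher. With the median log2 ratio set to 0, also added after seeing the data, limma gave 3524 higher. These scalings raise the Dio3KO side by construction, by 0.10 (equal sums) and 0.05 (median) on the log2 scale. Hlf and Per2 had no value under a minimum of 5 RPKM. Depth per sample is unknown, which limits what can be said of Hlf and Per2, and with 4 samples per group the interval of Per1 covers changes of the size seen for Dbp.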

Other observations

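Genes that the PAR-bZIP factors or the clock are known to drive in other tissues were measured as 10 output genes, of which 3 rose, 1 fell and 6 stayed short of the threshold. The 4 called of 10 are near the 29.9% called over all genes, and nothing is read from the count. Their median log2 ratio was 0.22, beside -0.05 over all genes. Lonrf3 rose to 40.8 RPKM in Dio3KO-labelled testes, against 24.0 RPKM in wild-type testes (log2 ratio 0.75, adjusted p = 0.0078 in the authors' deposited table). Por, the reductase that passes electrons to cytochromes P450, rose to 27.7 RPKM in Dio3KO-labelled testes, against 21.9 RPKM in wild-type testes (log2 ratio 0.34, adjusted p = 0.0346 in the authors' deposited table). Cys1, which encodes the ciliary protein cystin, rose to 1.40 RPKM in Dio3KO-labelled testes, against 1.07 RPKM in wild-type testes (log2 ratio 0.28, adjusted p = 0.0129 in the authors' deposited table). Wee1, a kinase that holds back mitosis, fell to 20.2 RPKM in Dio3KO-labelled testes, against 24.6 RPKM in wild-type testes (log2 ratio -0.27, adjusted p = 0.0266 in the authors' deposited table). Of the abundant outputs that did not pass, Tsc22d3 had 66.4 RPKM in Dio3KO-labelled testes and 65.8 RPKM in wild-type testes, and Alas1, the first enzyme of haem synthesis, had 41.1 RPKM in Dio3KO-labelled testes (CV 0.22) and 32.0 RPKM in wild-type testes (CV 0.24).

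Glucocorticoids can reset clocks through Per1, so 12 genes known to be induced by glucocorticoids were read as well. Of these, 5 rose, 0 fell and 7 stayed short of the threshold, where 14.0% of all genes tested rose and 15.9% fell. Their median log2 ratio was 0.17, beside -0.05 over all genes, and no test was made of the list. Sgk1, a kinase that promotes sodium uptake, rose to 14.1 RPKM in Dio3KO-labelled testes, against 8.72 RPKM in wild-type testes. Mt1, a metallothionein, rose to 62.9 RPKM in Dio3KO-labelled testes, against 38.5 RPKM in wild-type testes. Klf9, which is also a known thyroid hormone target, rose to 34.5 RPKM in Dio3KO-labelled testes, against 8.17 RPKM in wild-type testes. Cebpd had 8.97 RPKM in Dio3KO-labelled testes and 4.62 RPKM in wild-type testes, and Nfkbia, the inhibitor of NF-kappa-B, had 50.01 RPKM in Dio3KO-labelled testes and 44.1 RPKM in wild-type testes, both also past the threshold. Among those that did not pass were Fkbp5, with 45.8 RPKM in Dio3KO-labelled testes and 47.7 RPKM in wild-type testes, Tsc22d3, given above, and Per1 itself, which was not counted in the list. Hormone levels were not measured.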
